A study of Drosophila melanogaster with 2 samples.

Results

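Few nuclear genes of oxidative phosphorylation had a Dorsal-GFP peak that passed the authors' threshold near a start site in larvae. The genes were taken by symbol, as protein-coding genes on the nuclear chromosome arms whose Ensembl symbol begins with ND-, UQCR-, COX or ATPsyn, which gave 80 of the 13968 protein-coding genes there. Of the 80, 40 encode proteins of complex I (ND-), 9 of complex III (UQCR-), 16 of complex IV (COX) and 15 of complex V (ATPsyn), copies included. Of these 80 genes, 3 had a peak of the thresholded list with its summit within 1000 bp of an annotated start site, namely COX7AL2, COX7C and ATPsynC.

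Chromatin immunoprecipitation with sequencing was done on whole Drosophila melanogaster larvae in the wandering phase of the third instar, males and females pooled. The flies were of strain dl-small-GFP, a transgenic line that stably expresses the RC form of dl (Dorsal, an NF-kB factor of the Toll pathway) with GFP at its C terminus. An antibody to GFP was used, although 1 label field names dl. The 2 libraries, replicates 3 and 1 of a single group, came from fragments of 175 to 275 bp and 200 to 275 bp, and there was no second condition. Tissues were not separated, so binding in a few cells and weaker binding in many cells cannot be told apart.

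The mitochondrial respiratory chain passes electrons from NADH through complex I, ubiquinone, complex III and cytochrome c to complex IV, which reduces oxygen, and the proton gradient that results drives the ATP synthase, complex V. Most subunits are encoded in the nucleus and the rest in mitochondrial DNA. Many fly subunits also have a second nuclear gene, a copy named with a final L, and such copies are known as a group for expression in the testis. In fly larvae the genes of this pathway are active in nearly every tissue, with high demand in muscle.

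Regions at COX7AL2 and ATPsynC are shown because they hold 6 of the 7 peaks of the 80 genes. Each is in dm6 (release 6 of the genome, sequence from RefSeq), on the minus strand, which is the strand of both genes. Capitals mark the 21 bases centred on the summit, and none of the 6 motifs described later matches exactly within any of them. Near matches were not counted. At ATPsynC the capitals hold GGGTTTTTCCG, which departs only at its last base from the dl pattern GGGWWWWWCCM (W for A or T, M for A or C). That near match was singled out from the sequence. How often such near matches occur at other summits was not tested, so it is no evidence of a dl site.
COX7AL2 strongest peak in the window, chr2L:2193655-2193775: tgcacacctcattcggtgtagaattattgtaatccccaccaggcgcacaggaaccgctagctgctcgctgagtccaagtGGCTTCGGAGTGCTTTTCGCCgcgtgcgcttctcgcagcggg
COX7AL2 peak at the distal start site, chr2L:2197851-2198094: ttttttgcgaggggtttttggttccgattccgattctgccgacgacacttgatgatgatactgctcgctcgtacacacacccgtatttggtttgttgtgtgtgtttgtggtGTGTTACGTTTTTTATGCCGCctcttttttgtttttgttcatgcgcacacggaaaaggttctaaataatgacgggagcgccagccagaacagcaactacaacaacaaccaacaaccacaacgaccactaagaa
ATPsynC peak, chr3R:31219394-31219637: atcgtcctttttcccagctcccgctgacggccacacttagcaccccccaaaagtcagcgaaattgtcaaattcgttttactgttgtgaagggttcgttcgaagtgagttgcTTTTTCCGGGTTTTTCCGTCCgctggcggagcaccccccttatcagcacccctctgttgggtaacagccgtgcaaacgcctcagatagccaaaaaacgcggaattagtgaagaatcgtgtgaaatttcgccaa
Their G and C contents were 58.7%, 45.1% and 50.8%. The sequence at COX7C is not shown.

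Thresholded peaks were sparse at these genes. The share with a peak was 3 of 80 (3.75%, exact Clopper-Pearson 95% interval 0.780 to 10.6%), against 1505 of all 13968 protein-coding genes (10.8%). Of the 80, 27 (33.8%, 23.6 to 45.2%) had a candidate of the pooled list, which holds the 29999 regions present before thresholding, against 5660 of all protein-coding genes (40.5%). That list was deposited as peaks and background together, so a candidate alone does not show binding. Peaks were therefore at 3 of the 27 genes with a candidate (11.1%), and at 26.6% of all coding genes with a candidate. The remaining 53 genes had no pooled candidate in the window. In the lists called on 1 library each, described below as A and B, 46.2% of the 80 genes had a region in list A, against 44.1% of all coding genes, and 46.2% in list B, against 52.1%. The members were thus lower than all coding genes in the pooled list and list B and slightly higher in list A. Genes are not replicates and were proposed with results of these data known, so these shares are descriptions and carry no test. The intervals cover the counting of genes only, and the read depth behind each region is unknown.

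**Figure D1:**
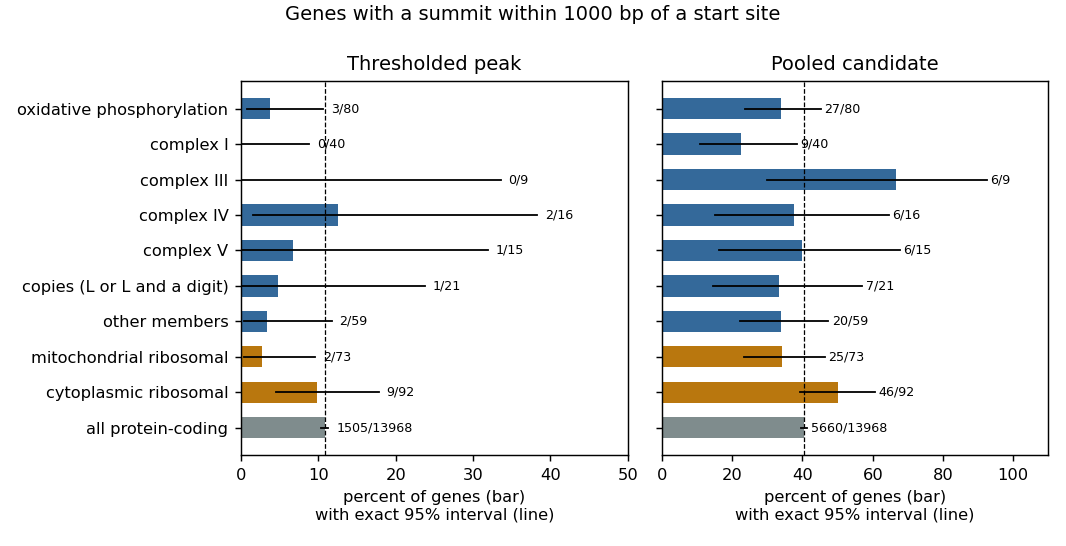
Percent of genes with a thresholded peak (left) or a pooled candidate (right) whose summit lies within 1000 bp of any start site, by gene set; bars are shares, lines exact 95% intervals, labels counts, and the dashed line the share of all protein-coding genes. Complexes I and III have no peak, and the set as a whole stands at 3.75% for peaks and 33.8% for candidates.

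By complex, the peaks lay at genes of complexes IV and V, in counts too small to tell the complexes apart. None of the 40 genes of complex I had a peak (exact 95% interval 0 to 8.81%), and 9 (22.5%, 95% interval 10.8 to 38.5%) had a pooled candidate. Complex III had a peak at 0 of 9 genes (0 to 33.6%) and a candidate at 6 (66.7%, 29.9 to 92.5%). Complex IV had peaks at 2 of 16 genes (12.5%) and candidates at 6 (37.5%). Complex V had a peak at 1 of 15 genes (6.67%) and candidates at 6 (40%). The intervals for peaks of all 4 complexes overlap, as do those for candidates, and no test between complexes was made. The interval for peaks of complexes III, IV and V included the 10.8% of all coding genes, and that of complex I lay below it.

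Signal in what follows is the authors' enrichment of ChIP over control for a region, used within a list. The pooled and thresholded lists rest on both libraries, list A and list B on 1 library each, and the sources used here do not tie A or B to a replicate number. The lowest signal in the thresholded list was 73.3 and its median 119.5.

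COX7AL2 (FBgn0085201, 2L 2192525 to 2197912, minus strand), a copy of the COX7A gene for a small nuclear-encoded subunit of complex IV, was the exception. It had 5 thresholded peaks in its windows, a number reached by 16 coding genes (0.115%). It has 3 annotated start sites, 2 of them close together and 1 at the far end of the gene 4902 bp upstream. The strongest of the 5 peaks, 676 bp upstream of a proximal start and inside the intron, had a pooled signal of 263.5, with 197.3 in list A and 71.7 in list B, and was rank 356 of the 2690 peaks on the arms. The peak 957 bp upstream of the distal start (2L 2198810 to 2198924) had a signal of 195.6, with 128.7 in list A and 53.9 in list B. Both of these were among the 2718 best regions of each single list.

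The other 3 peaks of COX7AL2 were weaker in list B. The one at the distal start, 61 bp upstream of it, had a pooled signal of 116.8, with 102.5 in list A (rank 776) and 24.6 in list B (rank 5246). The one 708 bp downstream, in the intron, had a signal of 105.4, with 82.8 in list A (rank 1083) and 41.4 in list B (rank 2240). It too was among the 2718 best regions of each single list. The last (2L 2192300 to 2192543), with a signal of 134.2, 125.9 in list A and 22.4 in list B, lay beyond the 3′ end of COX7AL2 and 36 bp from the start of the next gene, CG10874. Only that peak was nearer to another gene than to the member itself, so 6 of all 7 member peaks (85.7%) were nearest to a start of the member.

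These peaks belong to a longer run. Within 7500 bp of the distal start there were 12 thresholded peaks, with signals from 79.0 to 479.3. Of the 12, 8 lay upstream of that start in intergenic sequence, 3 inside the gene and 1 beyond its 3′ end. The strongest, at 2L 2200401 to 2200572, was 2568 bp upstream and rank 94 on the arms. Every one of the 12 overlapped a candidate in both list A and list B. Of all coding genes, 2 (0.0143%) had at least 12 peaks within 7500 bp of a single start, COX7AL2 and Rh5, which encodes an opsin. The neighbours CG10874 and CG31668 flank the run. The peaks farthest upstream were nearest to CG31668, and the one beyond the 3′ end was nearest to CG10874. Whether the run acts on any gene was not measured.

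**Figure D2:**
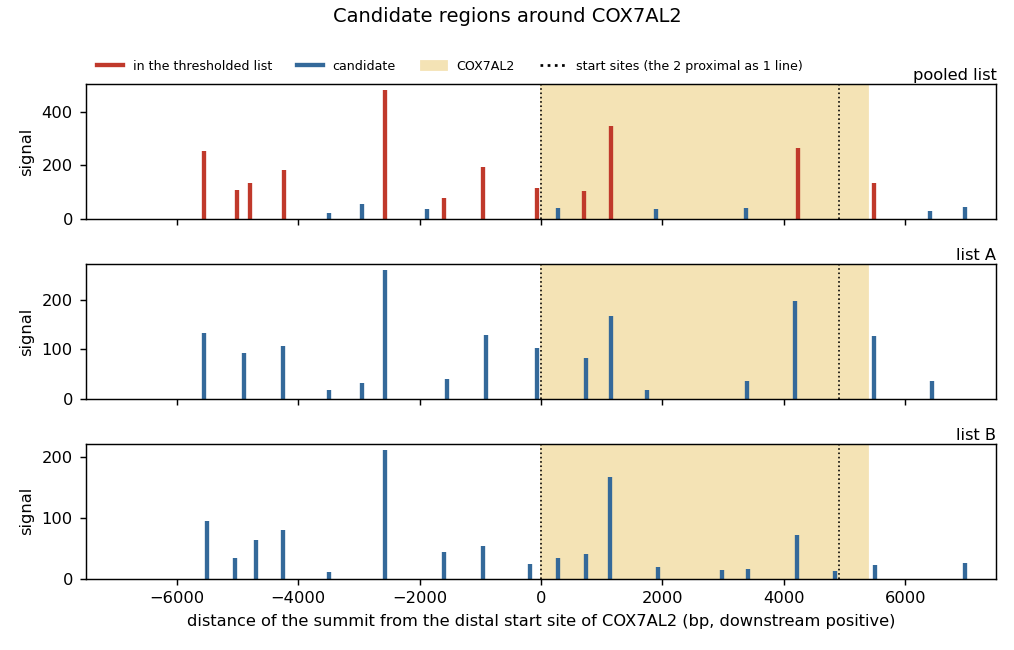
Signal of each candidate region by the distance of its summit from the distal start site of COX7AL2, in the pooled list, list A and list B; shading marks the gene, dotted lines its start sites, and red bars regions of the thresholded list. The 12 red bars extend upstream of the gene, and the tallest, at a signal of 479.3, lies 2568 bp before the distal start.

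COX7C and ATPsynC each had 1 peak close to a start site, both low in the thresholded list. COX7C (FBgn0040773, 2R 10048353 to 10050066, plus strand) encodes another small subunit of complex IV. Its peak at 2R 10048092 to 10048335 had its summit 139 bp upstream of the start and a pooled signal of 87.8 (rank 2058 of 2690), and the overlapping candidates had 31.7 in list A (rank 6637) and 46.5 in list B (rank 1868). The summit lay in an intron of oys, a gene on the other strand whose 5′ end overlaps that of COX7C by 267 bp, and oys had this peak in its window too. A second candidate of COX7C, with a signal of 62.0, did not pass, and the strongest list A region in the window of the gene had 49.8 (rank 2572).

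ATPsynC (FBgn0039830, 3R 31216145 to 31219630, minus strand) encodes the ring subunit of the proton channel of ATP synthase. Its peak, in the 5′ UTR 43 bp downstream of the nearest of 3 start sites, had a signal of 82.5 (rank 2251). The overlapping candidates had 37.1 in list A (rank 4662) and 43.9 in list B (rank 2043). At COX7C and at ATPsynC, the candidate that overlaps the peak was among the 2718 best regions of list B and not of list A.

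Just below the threshold of 73.3 lay ATPsynbeta and ND-15. ATPsynbeta, the catalytic subunit of ATP synthase on chromosome 4, had a pooled candidate of 65.0, with 44.2 in list A and 11.5 in list B as the strongest in its windows. The pooled summit was 447 bp upstream of ATPsynbeta and 62 bp from the start of CG11076. ND-15, an accessory subunit of complex I, had a candidate of 63.7 at 2L 114546 to 114789, 58 bp upstream of its start, with 61.5 in list A (rank 1810) and 14.2 in list B (rank 14598). ND-15 was thus among the best regions of list A alone. Next came ATPsyndelta, a subunit of the central stalk, with 50.4 at a summit 51 bp from Ypel, then ND-13B with 42.8 at 38 bp inside its own start and UQCR-Q of complex III with 41.8. All 5 were weak against the median of the thresholded list.

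Over the 24 genes with a candidate and no peak, the strongest candidate had a signal of 21.5 to 65.0, with a median of 32.6. The median over the 27 genes with a candidate was 33.8, and over all 5660 coding genes with one it was 42.6. For 17 of the 24, that candidate was nearest to a start of the gene itself. The window of 22 of the 24 held a candidate in list A, that of 15 in list B and that of 14 in both. The other 10 thus had a region in at most 1 of the single lists.

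**Figure D3:**
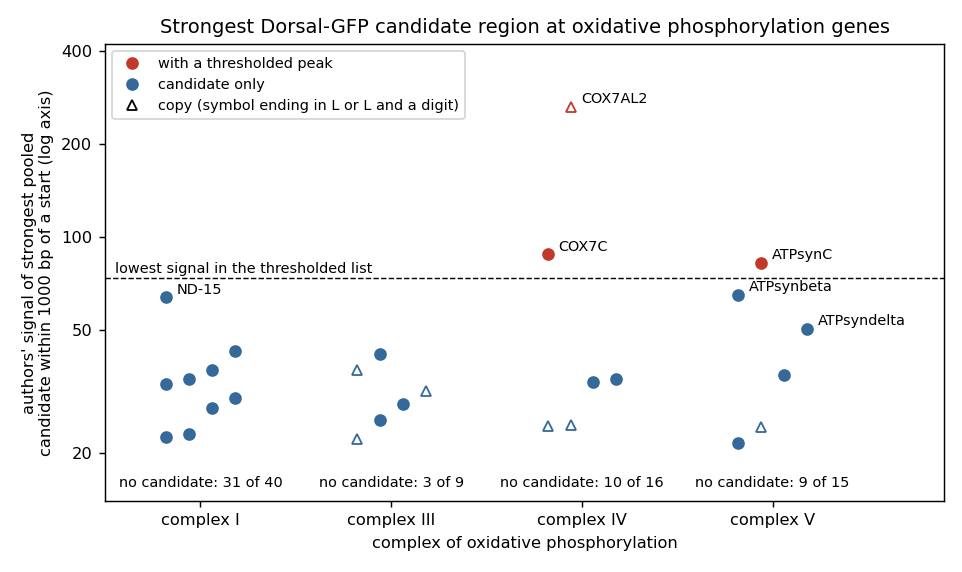
Signal of the strongest pooled candidate within 1000 bp of a start site for each of the 27 genes that had one, by complex, on a log axis; red marks genes with a thresholded peak, triangles copies, and the dashed line the lowest thresholded signal of 73.3. The 3 red genes lie above the line and the other 24 between 21.5 and 65.0.

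The 53 genes without a pooled candidate included central parts of each complex. In complex I they numbered 31 and included ND-75, ND-51, ND-24 and ND-30, core subunits of the electron-transferring arm. In complex III they were the core proteins UQCR-C1 and UQCR-C2, and UQCR-6.4. In complex IV there were 10, among them COX4, COX5A, COX5B, COX6B and COX7A. In complex V there were 9, among them ATPsyngamma, ATPsynB, ATPsynO and ATPsynF. Many of the 53 had a region in a single list: 12 had one in list A and 19 in list B, of which 8 had one in both, and 30 had none in either. Among those just named, ND-51 had 24.7 and ND-75 14.8 in list B alone, COX5B had 29.5 in list A alone, and ND-24, ND-30, UQCR-C1, COX4, COX7A, ATPsyngamma and ATPsynO had none. Only ND-ASHI, an accessory subunit of complex I, reached the 2718 best regions of a single list, with 41.4 in list B (rank 2237) and none in list A.

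Peaks 1000 to 2000 bp away added 3 genes, each with the peak nearer to a neighbour. The summit at ND-39 (signal 86.9) was 38 bp from a start of ZnT77C, a gene that overlaps ND-39. The one at ND-MNLL (112.3) was 530 bp from Nek2, and the one at ATPsyndelta (159.0) was 673 bp from Ypel. Of the 77 genes without a peak, 9 (11.7%) had a peak within 5000 bp, against 1261 of the 12463 coding genes without a peak (10.1%). The median distance to the nearest peak was 20952.5 bp for the 80 genes and 20584.0 bp for all coding genes.

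Symbols ending in L numbered 18, and none had a peak (exact 95% interval 0 to 18.5%). Of the 62 other members 3 had one (4.84%, 95% interval 1.01 to 13.5%). The letter is an imperfect guide. ND-MNLL ends in L because its name is a string of residues and not as a copy, while COX7AL2, COX6AL2, ND-51L1 and ND-51L2 are copies with a digit after the L. With copies read as L or L and a digit and without ND-MNLL, 1 of 21 copies (4.76%, 0.120 to 23.8%) and 2 of 59 other members (3.39%, 0.413 to 11.7%) had a peak. Candidates were at 7 of 21 copies (33.3%) and at 20 of 59 others (33.9%). The single copy with a peak was COX7AL2.

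Of the 18 symbols ending in L, 6 had a candidate, all of them copies. UQCR-6.4L had a signal of 37.2 and UQCR-11L 31.6, both with the summit inside an intron of another gene, Mipp1 and Acsl. COX4L had 24.7, COX6CL 24.4, ATPsynepsilonL 24.2 and UQCR-14L 22.1. All 6 were nearest to the copy's own start. Of the tandem pairs, only COX7C and COX7CL included a gene with a peak. COX7CL starts 281 bp beyond the end of COX7C, and the COX7C summit was 2134 bp from its start. COX5BL, which lies 122 bp beyond COX5B, had no pooled candidate and neither had COX5B, while list A had a region of 38.4 at COX5BL.

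The genes of the set were short by median span, and a smaller share of them had a single start site than of all coding genes. The median span was 1091.5 bp, against 2164.5 bp over all coding genes, while 46 of 80 (57.5%) had 1 start site, against 73.5% of all coding genes. A gene with more start sites has more windows, and peaks were more frequent at such genes in general. Among genes with 1 start site 0 of 46 members had a peak, against 634 of 10269 coding genes (6.17%). With 2 start sites it was 1 of 29 (3.45%), against 16.4%. With 3 or more it was 2 of 5 (40%), against 39.7%, the 2 being COX7AL2 and ATPsynC. The share of members was below that of all coding genes with 1 or 2 start sites, and both member intervals, 0 to 7.71% and 0.0873 to 17.8%, included the coding share.

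**Figure D4:**
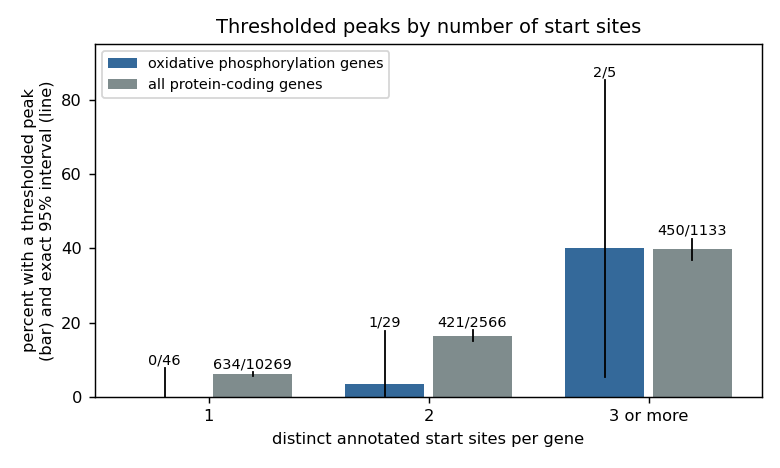
Percent of genes with a thresholded peak by the number of distinct annotated start sites, for oxidative phosphorylation genes and for all protein-coding genes; bars are shares, lines exact 95% intervals, and labels counts. Members stand at 0 of 46, 1 of 29 and 2 of 5.

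Motifs were searched on both strands in the promoters, 250 bases before to 50 after any start site, and in the 100 bp on each side of summits. GAGAGAG, bound by GAGA factor, was in 1 of 80 member promoters (1.25%), against 9.06% of all coding genes. It was in 38.7% of coding genes with a thresholded peak and in 5.49% of those without. The 1 member was COX7AL2, with the match 239 bases before its distal start. At summits it matched 0 of the 7 member peaks, against 1182 of all 2690 peaks on the arms (43.9%), and 0 of the 24 candidates that did not pass, against 5.58% of the other candidates. Of the 12 peaks of the COX7AL2 run, 1 had it.

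TATCGATA, the DNA replication-related element (DRE) bound by DREF and common in promoters of genes used by every cell, was in 13 of 80 member promoters (16.2%, 95% interval 8.95 to 26.2%), against 10.2% of all coding genes. All 13 were other than copies, at 13 of 59 (22.0%), and 0 of 21 copies had it. It was at ND-15, ND-19, ND-23, ND-ASHI, ND-B14.5A, ND-B14.5B, ND-B15, ND-MNLL, ND-SGDH, UQCR-14, COX4, COX7A and ATPsynE. None of the 7 member peaks had a match at the summit, while 5 of the 24 candidates that did not pass had one, at ND-15, ND-19, UQCR-14, ATPsynD and ATPsynE. The summit at ATPsynD was 37 bp from a start of cdi and 693 bp from ATPsynD, whose own promoter had no match. Among all peaks on the arms the share was 0.781% and among the other candidates 0.997%. Those regions lie anywhere on the arms, while the member regions were taken near start sites. Shares at summits, for this and the other motifs, are therefore not like for like. Motif shares of this kind are descriptions, and a match does not show that a factor binds. Genes with more start sites also had more promoters searched. A single start site was annotated for 45.8% of the 59 other members, 90.5% of the 21 copies and 73.5% of all coding genes.

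Sites of the element are shown for 3 of those genes and for ND-SGDH, which had no pooled candidate but 33.9 in list A and 15.9 in list B, to let the flanks be compared. Each is 30 bases of dm6 on the strand of the gene, with the element in capitals.
ND-15, 123 bases before a start, chr2L:114592-114621, plus strand: tgcaatcgataTATCGATAtgtcacaatca
UQCR-14, 62 bases before, chrX:16286215-16286244, plus strand: tgagtgcgataTATCGATAggtgcagtgtg
ATPsynE, 18 bases before, chr3R:14327039-14327068, plus strand: accaatacaacTATCGATAgccgcctgtca
ND-SGDH, 47 bases before, chr3L:12138502-12138531, minus strand: atctctgctgtTATCGATAtatcaaaacag
At ND-15 and UQCR-14 the bases just before the element repeat part of it.

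**Figure D5:**
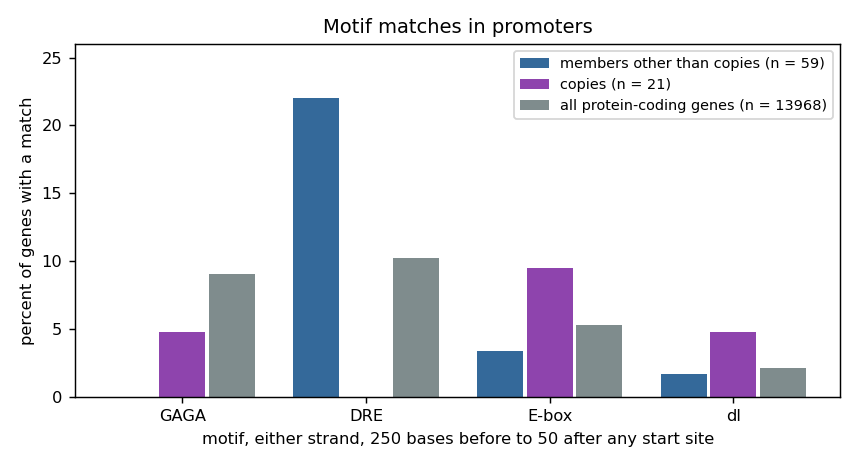
Percent of genes with a match to each motif within 250 bases before to 50 after any start site, for members other than copies, copies and all protein-coding genes. The DRE stands at 22.0% for members other than copies and 0 for copies, and GAGA at 9.06% for all coding genes.

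The remaining motifs were rare. The NRG element, described upstream of fly nuclear genes for respiration, was in 1 member promoter (1.25%), against 0.236% of all coding genes. The member was ATPsynC, where the match lies 100 bases before 1 of the start sites, in the 5′ UTR and 371 bp from the peak summit, and it is shown with the element in capitals.
ATPsynC, chr3R:31219131-31219160, minus strand: ttttccgcaTGTTACGTAACttttctgagg
The dl motif was in 2 member promoters (2.50%), those of ND-51L1 and ND-B12, which had no pooled candidate, against 2.10% of all coding genes. At summits it matched none of the 7 member peaks. The dl motif was rare at summits in general, at 41 of all 2690 peaks on the arms (1.52%) and 1.39% of the other candidates. Its absence from 7 peaks therefore says little about them. CACGTG, an E-box, was in 4 member promoters (5.00%), against 5.29%, and within 100 bp of the COX7C summit. TCAAGGTCA, an element of the receptor ERR, was in none of the 80, against 0.215%.

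Mitochondrial ribosomal protein genes, another set of short nuclear genes for the organelle, had peaks at 2 of 73 (2.74%, 0.334 to 9.55%) and candidates at 25 (34.2%). Cytoplasmic ribosomal protein genes had peaks at 9 of 92 (9.78%, 4.57 to 17.8%) and candidates at 46 (50%). No test of the difference from the 80 genes was made, and the intervals overlap.

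Other genes of respiration, from a list of 59 symbols of which 55 were found, had peaks at 8 (14.5%, 6.50 to 26.7%) and candidates at 19 (34.5%, 22.2 to 48.6%). Both intervals included the share over all coding genes, 10.8% for peaks and 40.5% for candidates. Among 8 subunits with other symbols, RFeSP, the Rieske iron-sulfur protein of complex III, had a peak of 113.5 lying 110 bp upstream, with 92.8 in list A and 12.6 in list B. None of 6 genes of complex II had one. Among electron carriers, 2 of 11 had a peak. Coq2, of ubiquinone synthesis, had the strongest of all peaks on the arms (2823.9), at -400 bp from its start, nearest to lncRNA:CR45215. Cyt-c-d, a cytochrome c, had peaks of 254.8 and 195.3, both nearest to CG31808.

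Of 4 genes for ADP/ATP carriers and porins, sesB and its neighbour Ant2, both carriers, had a peak. That of sesB, 110 bp upstream, had a signal of 413.0, with 220.3 in list A and 193.4 in list B, and a peak of 120.8 lay within 917 bp of both genes. A list of 11 genes covered regulators of nuclear and mitochondrial genes of respiration and factors that replicate mitochondrial DNA. Of these, mtTFB1 (90.3, nearest to CG11658) and mtSSB (74.3) had a peak. Of 10 genes of the citric acid cycle only kdn, the citrate synthase, had one (118.2). None of 5 assembly factor genes had a peak or a pooled candidate. The peaks of sesB and kdn were nearest to these genes themselves, as were those of RFeSP and mtSSB.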

How the data were processed

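The deposited files were lists of regions in dm6 and dm3, and the dm6 lists were used. Per the deposited description files, list A and list B were each called on 1 ChIP alignment against a control, the pooled list on both, and the thresholded list was made from these 3 by the irreproducible discovery rate. List A, list B and the pooled list were deposited as peaks and background, with 29999, 30000 and 29999 regions. The deposited signal value per region is the authors' enrichment over control, not normalised between lists. The deposited −log10 of the q-value was not used for ranking. The sources used here name no aligner, caller or threshold.

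Genes and start sites came from Ensembl release 115 (BDGP 6.54) without pseudogenes and transposable elements, and all regions ended within the chromosomes of the RefSeq release 6 sequence. A summit is column 2 plus column 10, given 1-based. Shares have exact Clopper-Pearson 95% intervals (scipy 1.17.1). Window counts were tested on simulated data. With 1 group, no test between samples was possible. The 80 genes, the related lists and the motifs were chosen with earlier results of these data known. Named are all genes with a peak, the 5 strongest candidates without one, copies ending in L with a candidate, and related genes with a peak. Other genes named were chosen after their values were seen. Of the related symbols, 4 were not found in the annotation.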

Additional observations from a re-analysis of the deposited data

How the results depend on the processing

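Of 90 recomputed values, 79 stayed within the exact 95% interval of the reported value, or within 10% of it for the median signal, and 11 did not. This is a loose criterion, because the intervals cover the counting of genes and are wide for small sets, up to 33.6% for complex III. The share of 7.50% at a window of 2000 bp counted as within the interval of the reported 3.75%. The count of 79 is therefore no measure of stability. Over other windows, start sites, overlaps, signals and single lists, the share of members with a peak was 1.25 to 7.50%, and below the share of all coding genes each time. The leave-one-out lists gave 3.75% (A alone: ND-15, COX7AL2 and COX7C) and 5.00% (B alone: ND-ASHI, COX7AL2, COX7C and ATPsynC). For complex V the leave-one-out values were 0 and 6.67%, and at or above the median signal 0, where only COX7AL2 kept a peak. Further changes were 11.1% with candidate genes as the base, 22.5% with a candidate at 250 bp, a median signal of 87.8 for peaks at 500 bp, against 116.8 at 1000 bp, and motif shares of 0 for GAGA and 1.25% for the E-box within 100 bp of a start. Chosen after seeing the data were genes with 1 start site (0) or with 3 or more (40%), and without COX7AL2 the median signal was 85.1 and 100% of peaks were nearest to the member. The cause of these shifts was not tested. No paired analysis was possible because there was 1 group. Depth is unknown, so a missing peak does not show missing binding.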

Other observations

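Regions on the mitochondrial genome, which encodes the remaining subunits, stood apart from those at the nuclear genes. Of 29 candidates on the mitochondrial genome 28 were in the thresholded list, with a median signal of 834.3 and a highest of 4340.0, at a summit in mt:CoII. Of the 28 summits, 22 lay in protein-coding genes, and 10 of the 13 such genes held at least 1, the exceptions being mt:ATPase8, mt:ND3 and mt:ND4L. The other summits lay in mt:lrRNA (signal up to 2808.2), mt:srRNA (up to 722.0) and a tRNA gene (821.1). High signal was thus not particular to genes for subunits. The share of this genome that is protein-coding was not computed, so these counts show no preference for such genes. The complex IV gene mt:CoI and the complex I gene mt:ND4 held 4 each. Copy number of the mitochondrial genome was not measured, and its part in these values was not tested.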
